A study of Homo sapiens with 31 samples.

Results

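CTBP2 binding in untreated MUTZ3 cells was mapped by ChIP-seq after 2 ways of crosslinking, and the resulting peak lists are compared here. One list comes from unmodified MUTZ3 cells fixed with a single crosslink. The other 2 come from separate libraries of MUTZ3 cells that carry the pCW-4xPLDLS construct, without dox and at the 72 h time point, fixed first with disuccinimidyl glutarate (DSG) and then with formaldehyde. The members are all CTBP2 peaks of these 3 libraries outside the alternative haplotype contigs and outside chromosome 6 from 28.5 to 33.5 Mb, the region that most of those contigs duplicate. They number 134174 of the 533140 peaks in the 13 lists of the series. MUTZ3 is a human acute myeloid leukemia line in which a rearrangement of chromosome 3 activates EVI1. The inducible cells are a bulk transduced population in which dox switches on 4xPLDLS, a peptide with repeats of the motif through which EVI1 holds CTBP2. The same CTBP2 antibody was used in all 3 libraries. Crosslink, cell population, experiment and input changed together, so that their parts in any difference cannot be told apart. With 1 library against 2, only 3 arrangements of the labels exist and no test can pass a threshold, so every value below is a description. The spread is that between the DSG libraries, and whether these came from separate cultures is not stated. The label of each library is the source for its crosslink, and a peak list offers no check of it. The methods text of the study describes DSG and then formaldehyde for ChIP of EVI1 and CTBP2. That text gives no separate protocol with a single crosslink, so it differs from the label of the unmodified CTBP2 library. The supplement of the study also describes a listing of the protocol for each ChIP-seq library, whose entries are not reported here. An input of unmodified MUTZ3 cells is labelled as single crosslink.

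CTBP2 is a corepressor. It does not read DNA letters itself but is brought to chromatin by transcription factors that carry a short PxDLS type motif, among them EVI1 and the ZEB proteins, and it brings histone deacetylases, histone methyltransferases and the demethylase KDM1A to the site. Formaldehyde joins groups that lie very close together, mostly protein to DNA. DSG has a longer arm and joins proteins to each other, and is therefore used before formaldehyde for proteins that reach DNA through a partner. As a yardstick, the EVI1 lists of the same cells are given beside CTBP2, since EVI1 was fixed with DSG in both the unmodified and the inducible cells.

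Sites fell into classes. A shared site is a single-crosslink peak that overlaps a peak in both DSG lists by at least 1 bp, a single-only site is one that overlaps a peak in neither, and a DSG-only site is an interval called in both DSG lists without a single-crosslink peak. The reference sequence (GRCh37, the hg19 coordinates of the files, plus strand) of 101 bp centred on the summit is shown for the strongest site of each class and for the strongest shared sites at genes of blood transcription factors. Capitals mark, on either strand, the letters AGATAA read by GATA proteins, AGGAAGT read by ETS proteins and CAGGTG read by ZEB proteins. The DBNDD1 window is a run of short tandem units with 6 copies of the ZEB letters, the IL18RAP window holds 1 GATA and 1 ETS match, and the BPHL window repeats a GC-rich unit.
DBNDD1, shared, chr16:90098503-90098603: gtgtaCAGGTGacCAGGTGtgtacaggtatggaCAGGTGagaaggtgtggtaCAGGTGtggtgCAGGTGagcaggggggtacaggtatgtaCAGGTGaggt
MYB, shared, chr6:135644435-135644535: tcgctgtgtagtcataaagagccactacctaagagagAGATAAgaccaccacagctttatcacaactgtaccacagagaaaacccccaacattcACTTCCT
ETV6, shared, chr12:11951956-11952056: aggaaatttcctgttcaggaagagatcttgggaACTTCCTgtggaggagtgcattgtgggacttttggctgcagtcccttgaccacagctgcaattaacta
IL18RAP, single-only, chr2:103035010-103035110: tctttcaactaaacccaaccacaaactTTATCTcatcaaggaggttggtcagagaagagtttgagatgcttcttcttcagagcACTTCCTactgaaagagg
BPHL, DSG-only, chr6:3092503-3092603: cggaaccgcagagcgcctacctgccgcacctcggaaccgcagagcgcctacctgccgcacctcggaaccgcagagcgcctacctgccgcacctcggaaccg

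The DSG lists were longer and their peaks wider. The single-crosslink list held 16835 peaks, DSG replicate 1 held 61287 and DSG replicate 2 held 56052, and they covered 4.73, 38.5 and 27.6 Mb of the genome. The median width was 231 bp in the single-crosslink list against 440 and 387 bp with DSG, a mean of 413.5 ± 37.5 bp (SD, n = 2). Peaks over 1 kb made up 0.541% of the single-crosslink list, 17.0% of DSG replicate 1 and 7.36% of DSG replicate 2. At places called in both, the DSG peak was wider in 95.1% (replicate 1) and 96.4% (replicate 2) of cases, with a median ratio of 3.30-fold and 2.41-fold, or a mean log2 ratio of 1.496 ± 0.32 (SD, n = 2). A DSG peak that met the single-crosslink list held 2 or more of its peaks in 10.7% and 8.10% of cases, up to 12 in 1 DSG peak.

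EVI1, fixed with DSG in both kinds of cell, showed a difference of the same kind. It had a median width of 209 bp in unmodified cells and of 456 and 433 bp in inducible cells, and at places called in both the inducible peak was 2.99-fold and 3.71-fold wider, a mean log2 ratio of 1.73 ± 0.22 (SD, n = 2). The narrowest peak of a list was 145 bp for single-crosslink CTBP2 and 134 bp for EVI1 of unmodified cells, against 203 to 238 bp in the 4 untreated inducible lists. The plot of widths shows the inducible lists above the unmodified list for both proteins.

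With the full lists, most single-crosslink peaks were found again with DSG. Of the 16835 peaks, 12819 (76.1%, 95% Wilson interval 75.5 to 76.8, counting error only) overlapped a peak in both DSG lists and 1347 (8%, 7.60 to 8.42) overlapped neither. With the DSG lists cut to the size of the single-crosslink list, the share in both was 47.9%. Replicate 1 recovered 79.0% and replicate 2 recovered 89.2%, a mean of 84.1% ± 7.24 (SD, n = 2), although replicate 1 is the longer list. Peaks found in 1 DSG list alone were uneven, with 2196 in replicate 2 and 473 in replicate 1. For EVI1, 88.9% and 83.2% of the peaks of unmodified cells were found in the inducible lists and 81.2% in both. Single-only sites lay a median of 7318 bp from the nearest DSG peak, and 22.7% lay within 1 kb of one.

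In the other direction, 36845 sites were called in both DSG lists and 31.5% of them (31.0 to 32.0) had a single-crosslink peak. With lists of equal size this share was 61.9%. Of all peaks of 1 DSG list, 19.3% (replicate 1) and 24.6% (replicate 2) had one. Recovery followed strength. Of 5 equal groups of DSG replicate 1 peaks by fold enrichment (the authors' signal at the summit over the local background), 54.4% of the strongest and 3.92% of the weakest were in the single-crosslink list. For replicate 2 these shares were 63.1% and 7.09%. The other DSG list held 99.2% of the strongest and 26.5% of the weakest group of replicate 1. Seen from the single-crosslink list, strength mattered less, since 82.7% of its strongest group and 77.3% of its weakest were in both DSG lists, with a low of 73.1% in the middle group. Sequencing depth cannot be read from these lists, and its part in the number of peaks was not tested.

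**Figure D1:**
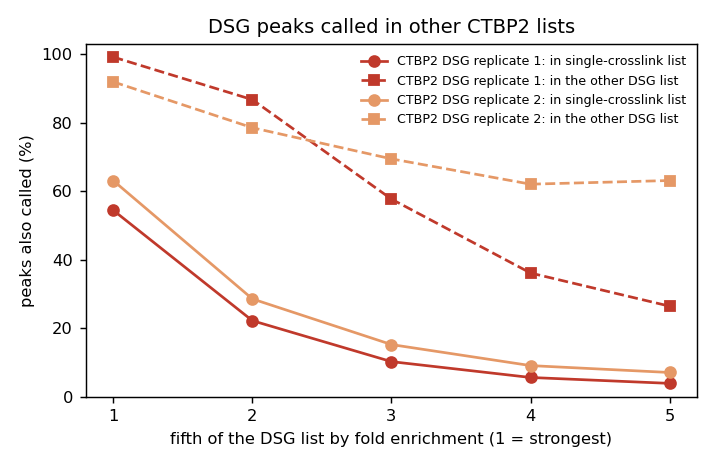
Share of DSG peaks (%) that also appear in the single-crosslink list (solid lines, circles) or in the other DSG list (dashed lines, squares), in 5 equal groups by fold enrichment from the strongest (1) to the weakest (5). The share in the single-crosslink list falls from 54.4% to 3.92% for replicate 1 and from 63.1% to 7.09% for replicate 2.

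The order of peak strength was kept only in part. At shared sites the median fold enrichment was 5.34 in the single-crosslink list, 12.04 in DSG replicate 1 and 9.48 in DSG replicate 2, and it was higher with DSG at 88.2% and 85.6% of sites. Across peaks called in both lists, Spearman's rho of fold enrichment was 0.171 with replicate 1 (13292 peaks) and 0.339 with replicate 2 (15015 peaks), a mean of 0.255 ± 0.119 (SD, n = 2). Over the 12819 shared sites the DSG replicates had a rho of 0.595 with each other. EVI1 of unmodified cells had a rho of 0.400 and 0.306 with the inducible lists, and the EVI1 inducible lists had 0.689 with each other. Peaks of 1 library are not independent, so these values carry no p. Of the strongest 1000 single-crosslink peaks, 283 overlapped the strongest 1000 of DSG replicate 1 and 405 those of replicate 2, whereas 547 of the strongest 1000 of replicate 1 overlapped those of replicate 2. Summits lay a median of 74 bp (replicate 1) and 54 bp (replicate 2) from the single-crosslink summit, next to 57 bp between the DSG lists.

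Base composition separated single-only sites from shared and DSG-only sites. The median GC content of the 101 bp summit window was 43.6% for single-only sites, 56.4% for shared sites and 59.4% for DSG-only sites, next to 39.6% for windows spaced every 10 kb over the genome. The first 2 of these classes are placed by the single-crosslink summit. DSG sites with a single-crosslink peak, placed by the DSG summit like DSG-only sites, had a median of 58.4%. Peaks found with replicate 2 but not replicate 1 had a median of 44.6% and those found with replicate 1 but not replicate 2 had 59.4%. Over whole lists, windows under 45% GC made up 17.8% of the single-crosslink list, 2.30% of DSG replicate 1 and 12.2% of DSG replicate 2. The whole-list medians were 53.5%, 59.4% and 54.5%, so that replicate 2 lay closer to the single-crosslink list than to replicate 1. Sorted by GC into 5 equal groups, 39.2% of the AT-richest single-crosslink peaks and 99.5% of the GC-richest were in DSG replicate 1, and 74.7% and 94.6% were in replicate 2.

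The same slope was seen for EVI1. Of the EVI1 peaks of unmodified cells, 69.5% of the AT-richest group and 97.5% of the GC-richest were in inducible replicate 1, and 47.6% and 99.3% were in inducible replicate 2, which like DSG replicate 1 for CTBP2 had few windows under 45% GC (2.45%). The slope differed between the other CTBP2 lists. The dox libraries of the inducible cells held 41.6% (replicate 1) and 59.2% (replicate 2) of the AT-richest single-crosslink peaks and 70.8% and 60.7% of the GC-richest. MOLM1 is a second leukemia line that expresses EVI1. Its list is the untreated arm of a dox-inducible EVI1 knockdown, for which the study names a clone of the line. It held 66.4% of the AT-richest and 70.6% of the GC-richest single-crosslink CTBP2 peaks. The longer list of MUTZ3 cells with retroviral 4xPLASS (the peptide with its motif mutated) held 71.7% and 77.7%. For these lists the labels state DSG, whereas their inputs are labelled as single crosslink. GC content moved with the comparisons of single-only and shared sites below. Among DSG sites it differed little between those with and without a single-crosslink peak. Of these sites, 34.9% of the AT-richest of 5 equal groups and 31.6% of the GC-richest had such a peak. The part of GC content in the class comparisons was not tested beyond the values given within GC groups.

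Single-only sites were rarely at promoters. Only 1 TSS per gene was used, the upstream end of its gene record, so that sites at other starts of a gene count as distal. Of 1346 single-only sites on annotated chromosomes, 31 had a protein-coding transcription start site (TSS) at most 1 kb away, which is 2.30% (1.63 to 3.25) against 26.0% (25.2 to 26.8) of shared sites, a difference of -23.7 percentage points. Their median distance to a TSS was 54229 bp against 14145 bp, 35.1% lay beyond 100 kb against 14.002%, and 3.71% had the summit in an exon against 16.4%. Without DSG replicate 1 the difference was -12.6 points, and among windows of 45 to 60% GC, a range chosen after seeing the data, it was -11.9 points. Promoter peaks of the single-crosslink list were in both DSG lists in 93.7% of cases, those at 1 to 10 kb in 80.5%, those at 10 to 100 kb in 73.0% and those farther away in 58.6%. Within the AT-richest group 77.5% of 142 promoter peaks and 36.6% of 3220 distal peaks were in both DSG lists, and within the GC-richest group 94.7% and 94.2%.

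DSG-only sites had nearly the promoter share of the other DSG sites. They lay within 1 kb of a TSS in 23.7% of cases against 24.96% of DSG sites with a single-crosslink peak, a difference of -1.22 percentage points. With all peaks of 1 DSG list in place of sites called in both, the difference was larger. It was -7.13 points without DSG replicate 2 and -2.05 points without DSG replicate 1 (SD 3.59 points, n = 2), which is not a spread around -1.22. The sign was not stable, since the difference was 9.97 points when the CTBP2 lists were cut to equal size and 0.198 points with a promoter window of 5 kb. Over whole lists the promoter share was 21.1% with the single crosslink and 19.1% and 19.9% with DSG. Cut to the 16835 strongest peaks by -log10 p, the DSG lists had 36.9% (replicate 1) and 23.9% (replicate 2) at promoters.

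EVI1 was called at most shared sites and at few single-only sites. An EVI1 peak of unmodified cells overlapped 62.6% (61.8 to 63.5) of shared sites, 14.03% (12.3 to 16.0) of single-only sites and 26.0% (25.4 to 26.5) of DSG-only sites. DSG sites with a single-crosslink peak carried one in 69.5%. The differences were -48.6 and -43.6 percentage points, and the first was -30.6 points without DSG replicate 2. With the EVI1 lists of the inducible cells, shared sites had a peak in 96.6% (replicate 1) and 95.1% (replicate 2), single-only sites in 12.5% and 8.76%, and DSG-only sites in 80.8% and 87.5%. The gap between DSG-only sites and DSG sites with a single-crosslink peak was -16.6 points when EVI1 sites called in both inducible libraries were used, so that the choice of EVI1 list moved it by more than 1.5 times. The inducible EVI1 lists come from the same cells and the same input as the DSG CTBP2 lists. Since wide peaks overlap more, summits were also compared, and an EVI1 summit of unmodified cells lay within 100 bp of 48.9% of shared summits, 12.5% of single-only summits and 17.6% of DSG-only summits.

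The difference by EVI1 was seen within every group of strength and GC content. Single-crosslink peaks with an EVI1 peak of unmodified cells were recovered in both DSG lists at a rate of 87.5% (86.8 to 88.1), against 62.6% (61.5 to 63.7) of peaks lacking EVI1. In the strongest of 5 groups by fold enrichment these shares were 88.2% and 61.6%, and in the weakest 90.4% and 66.8%. In the AT-richest group they were 54.7% and 24.8%, and in the GC-richest 99.0% and 89.6%. At promoters they were 97.9% and 89.0%, and at distal sites 84.7% and 55.3%. The EVI1 library of unmodified cells shares its cells with the single-crosslink library and its crosslink with the DSG libraries.

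Other CTBP2 lists held part of the single-only class. The longer retroviral 4xPLASS list had a peak at 38.3% of single-only sites, 85.7% of shared sites and 35.6% of DSG-only sites, and MOLM1 at 38.6%, 75.3% and 53.6%. The shorter 4xPLASS list held 13.1% of single-only sites and 2.43% of DSG-only sites. In the dox libraries of the inducible cells, 3.34% and 13.5% of single-only sites had a CTBP2 peak against 37.2% and 31.3% of DSG-only sites. In none of these 5 CTBP2 lists and 3 untreated EVI1 lists was a peak called at 413 single-only sites (30.7%), at 34 shared sites (0.265%) and at 1351 DSG-only sites (5.35%). By the median, single-only sites were only a little weaker than shared sites, with a fold enrichment of 5.14 against 5.34. They were rarer among the strongest single-crosslink peaks. Of 5 equal groups by fold enrichment, 3.59% of the strongest were single-only, against 10.5% of the middle group and 7.45% of the weakest. The highest fold enrichment of a single-only site was 25.2, against 71.0 for shared sites. The median width was 183 bp against 248 bp.

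The letters at the summits differed by class. Windows of 101 bp were searched on both strands. Single-only and shared windows were centred on the single-crosslink summit and DSG-only windows on the DSG summit. AGATAA, the GATA core, was in 14.3% of single-only windows, 6.12% of shared windows and 2.18% of DSG-only windows, against 7.70% of genome windows. AGGAAGT, read by ETS factors such as SPI1, ERG and FLI1, was in 18.1%, 12.6% and 7.16%, against 1.97% of genome windows. GATGAG, read by the second zinc finger domain of EVI1, was in 12.6%, 8.39% and 5.59% (genome 5.00%), and the longer ACAAGATA of its first domain in 1.26%, 0.383% and 0.111% (genome 0.362%). The last of these overlaps the GATA core wherever an A follows it. TGTGGT, the RUNX core, was in 16.3%, 13.3% and 9.06% (genome 7.01%). Shared and DSG-only windows differ in summit as well as in class. For these motifs, DSG sites with a single-crosslink peak, placed by the DSG summit like DSG-only sites, differed less from DSG-only sites. They held the GATA core in 3.95% of windows, the ETS letters in 10.03%, GATGAG in 6.89% and the RUNX core in 11.97%.

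Motifs rich in G and C ran the other way. CAGGTG, read by ZEB proteins, was in 5.20% of single-only, 11.2% of shared and 16.6% of DSG-only windows (genome 7.69%), and GGGCGG, the GC box, in 1.04%, 14.1% and 16.1% (genome 1.4997%). DSG sites with a single-crosslink peak, placed by the DSG summit, held the ZEB letters in 13.3% and the GC box in 15.8%. AGGGGGC, a part of the CTCF motif, was in 0.966%, 4.38% and 5.00% (genome 0.850%). TGANTCA of AP-1 was nearly alike in all (3.64%, 3.34% and 3.18%, genome 3.13%), and TTGCNNAA of CEBP was in 5.57%, 3.46% and 2.75% (genome 5.36%). Among windows of 45 to 60% GC the GATA core was in 9.21%, 7.65% and 3.29% against 3.17% of genome windows of that range. The ETS letters were then in 16.0%, 16.0% and 9.41% (genome 2.06%) and the ZEB letters in 6.39%, 9.72% and 16.5% (genome 15.5%). In that range, DSG sites with a single-crosslink peak held the GATA core in 5.64%, the ETS letters in 12.96% and the ZEB letters in 11.88%. For RUNX and CEBP the order of single-only and shared windows turned round in that range, with 13.5%, 17.2% and 11.96% for RUNX (genome 8.97%) and 3.76%, 4.47% and 3.71% for CEBP (genome 3.22%). For AP-1 it turned as well (3.95%, 4.56% and 4.40%, genome 2.97%). Both EVI1 motifs kept their order in that range, which holds 532 single-only windows. GATGAG was in 14.1%, 10.1% and 6.90% (genome 5.86%) and the rarer ACAAGATA in 1.13%, 0.412% and 0.170% (genome 0.139%). Within that range the ETS share was therefore alike in single-only and shared windows, and DSG-only windows held the ZEB letters about as often as the genome did. A match is a string of letters and does not show a bound factor.

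Repeated sequence was found almost only on the DSG side. The 50 bases at the summit occurred more than once in the reference at 1698 DSG-only sites (6.76%), 3 single-only sites (0.223%) and 30 shared sites (0.234%), and, placed by the DSG summit, at 177 DSG sites with a single-crosslink peak (1.53%). Among DSG sites with such a repeat 9.44% (8.20 to 10.8) had a single-crosslink peak, against 32.7% of those whose 50 bases occur once, and in the strongest of 5 groups of DSG sites it was 21.96% of 337 repeated sites against 71.1% of all. Peaks nearest to the 19 genes annotated on both X and Y numbered 85 on the X side among DSG-only sites and 0 among shared and single-only sites. The haplotype contigs left out above held 791 and 400 deposited peaks of the DSG lists and 0 of the single-crosslink list. How reads with several alignments were treated in each library is not given in the sources used here, and its part was not tested.

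The strongest shared sites ranked high in all lists. The first, on chromosome 16 from 90098026 to 90099444, lies in an intron of GAS8 with the TSS of DBNDD1 nearest at -12255 bp (distances are negative upstream of the TSS). It had a fold enrichment of 71.0 with the single crosslink and 137 in each DSG list, and ranked first in all 3. The site in an intron of FABP6 (chromosome 5, 159624462 to 159625336), which encodes a bile acid binding protein, had 60.8, 64.4 and 61.2. The site nearest TTLL2 (chromosome 6, 167806172 to 167807050) had 54.2, 113 and 53.5, and the one in an intron of ZBTB46 (chromosome 20, 62446390 to 62447676), a zinc finger factor of dendritic cells, had 49.0, 94.7 and 72.1. The site upstream of GRK1 (chromosome 13, 114319594 to 114321071), the rhodopsin kinase, had 42.8, 73.9 and 46.7. All 5 carried an EVI1 peak in unmodified cells.

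The strongest single-only site stood at -89 bp from the TSS of IL18RAP, the accessory chain of the interleukin 18 receptor, on chromosome 2 from 103034920 to 103035359. It had a fold enrichment of 25.2 and ranked 54 in its list. An EVI1 peak of unmodified cells was called there, and CTBP2 peaks in both 4xPLASS lists and in MOLM1, but no EVI1 peak in the untreated inducible lists and no CTBP2 peak in the dox lists. The next were at -245232 bp from MAB21L1 (chromosome 13, 36297932 to 36298427, fold enrichment 22.8), in an intron of DICER1 (chromosome 14, 95603498 to 95604062, 17.0), the nuclease that matures miRNAs, in an intron of ANKRD13A (chromosome 12, 110445757 to 110446028, 14.3), and upstream of CCDC170 (chromosome 6, 151802802 to 151803189, 14.1). All 5 had a peak in both 4xPLASS lists, 4 had an EVI1 peak of unmodified cells, and their windows held 38.6 to 50.5% GC.

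The strongest DSG-only sites were mostly in repeated sequence. The first spanned 3090856 to 3094524 of chromosome 6, inside an intron of RIPK1 with the TSS of BPHL nearest. It had a fold enrichment of 96.8 and 40.9 in the DSG lists. Its 50 summit bases occurred 6 times in the reference. The next, 100825 bp from SHOX on chromosome X from 685020 to 687052, had 57.9 and 33.8 and lies in the part of X that is also present on Y. Then came a pair of sites near SPACA7 on chromosome 13, from 112936316 to 112938322 (53.7 and 32.5, 6 copies) and from 112931163 to 112936239 (44.1 and 34.8, 35 copies), and a site at -16194 bp from EAPP on chromosome 14 from 35024448 to 35026550 (39.3 and 42.0, 2 copies). None of the 5 carried an EVI1 peak of unmodified cells, and all 5 carried one in both inducible lists. Because the reads could belong to any copy, these positions are uncertain.

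By the nearest TSS, 6620 of 20163 protein-coding genes (32.8%) had a shared site. With a fold enrichment of at least 5 in every list there were 4198 such genes, and with sites within 1 kb of a TSS alone 2864. Another 387 genes (1.92%) had a single-only site and no shared site, and 6326 (31.4%) had DSG-only sites alone. Of the 1110 genes with any single-only site, 65.1% also had a shared site, as did 39.5% of the 11516 genes with a DSG-only site. The genes with the most DSG-only sites and neither a shared nor a single-only site were PLGLB2 with 19, GTF2IRD2B with 12, and FAM174B and the Y copy of CRLF2 with 11 each, followed by 8 genes with 10 (ADRA2C, ALG1L2, ARHGAP27, CRLF2 on X, KDM2B, LTBP4, SLC7A5 and SMIM23). The first pair are members of families with near-identical copies and CRLF2 lies on both sex chromosomes, so their sites are uncertain. In the gene lists below a gene stands for the nearest TSS alone, and its site can be far from it. The strongest shared site lay -183040 bp from the TSS of ZEB2, -102706 bp from CD44 and 80777 bp from IKZF1. It lay -72142 bp from IFNGR1, -68822 bp from SMAD2, 47460 bp from HOXB1 and 21507 bp from CD14, but -373 bp from ITGA4 and -349 bp from ITGA2B.

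Genes of blood transcription factors were mostly at shared sites. Of 30, 23 (76.7%) had a shared site, next to 32.8% of all genes, 5 (16.7%) had DSG-only sites alone, next to 31.4%, and none had a single-only site without a shared one. The strongest shared site of MYB, a factor of progenitor growth, lies 142039 bp from its TSS, inside AHI1 (chromosome 6, 135644187 to 135644688). Its fold enrichment was 20.3 with the single crosslink, 6.51 in DSG replicate 1 and 26.6 in DSG replicate 2, and its rank was 125, 27185 and 394, so that the DSG replicates differed more from each other than the single crosslink did from replicate 2. ETV6, an ETS repressor, had 19.8, 14.1 and 22.02 in an intron (chromosome 12, 11951811 to 11952202). FLI1, an ETS factor of stem cells and megakaryocytes, had 17.0, 19.1 and 19.0. TAL1, which nucleates stem cell and erythroid complexes, had 14.9, 19.3 and 17.9, and IKZF1, the Ikaros gene of lymphoid cells, had 13.97, 13.7 and 21.95.

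GATA2, the stem cell GATA factor, had 5 DSG-only sites and no single-crosslink peak, the strongest spanning chromosome 3 from 128205349 to 128209400 with a fold enrichment of 16.0 and 7.79. SPI1, the ETS master factor of myeloid cells, had 3, the strongest at -17 bp from its TSS (8.16 and 4.72). GATA1 had 7.45 and 6.50, and KLF1, an erythroid factor, had 6.96 and 4.59. RUNX1 had no site of any class for which its TSS was the nearest. Only 1 TSS per gene was used, the upstream end of its gene record. Sites at other starts of RUNX1 or in its body can be counted for a neighbouring gene. Absence of CTBP2 at RUNX1 therefore does not follow. GFI1B, a repressor of erythroid and megakaryocyte cells, had 1 shared site, 683 bp downstream of its TSS (chromosome 9, 135820027 to 135820211), with 4.11, 13.8 and 8.59.

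Among 20 genes of the CTBP corepressor complex and partners of EVI1, 9 (45%) had a shared site and 7 (35%) had DSG-only sites alone, the latter near the 31.4% of all genes and the former next to 32.8%. MECOM, which encodes EVI1, had 1 shared site, in a UTR exon (chromosome 3, 168865052 to 168865628), and 4 DSG-only sites. The shared site had a fold enrichment of 6.20 with the single crosslink against 30.8 and 25.8 with DSG. It lay 516276 bp from the upstream end of the gene record, the only TSS used. Starts of shorter transcripts, such as that of the EVI1 isoform, were not used, so its distance to these is not known. CTBP2 itself had a single-crosslink peak 2340 bp downstream of its TSS (4.85) that was called in DSG replicate 1 (20.2) and not in replicate 2. CTBP1, its paralog, had a single-only site in an intron (chromosome 4, 1239269 to 1239416, fold enrichment 5.20) and a weak peak called in DSG replicate 1 alone (4.75 and 4.77). ZEB2, a repressor that carries CTBP-binding motifs, had 10.7, 20.4 and 29.2, and HIC1, a further CTBP-binding repressor, had 9.16, 10.7 and 16.1. The eraser KDM1A (12.1 and 7.38), the deacetylases HDAC1 (6.46 and 5.70) and HDAC2 (6.57 and 3.10) and the methyltransferase EHMT1 (6.59 and 6.44) had DSG-only sites alone.

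Of 20 neutrophil and monocyte genes, 10 (50%) had a shared site, next to 32.8% of all genes, and 6 (30%) had DSG-only sites alone, near the 31.4% of all genes. CD14, the monocyte endotoxin coreceptor, had the strongest (27.2 with the single crosslink, 12.9 and 29.3 with DSG), followed by CYBB, the oxidase subunit of phagocytes (20.5, 10.6 and 26.4), and ITGAM, which encodes CD11b (16.3, 6.63 and 13.05). CSF1R, the macrophage growth factor receptor, had 12.007, 33.1 and 24.5, and MPO, the granule peroxidase, had 7.79, 27.8 and 17.9 at -959 bp from its TSS. Lysozyme (LYZ, 5.40 and 8.003), S100A9 (9.35 and 8.06) and cathepsin G (CTSG, 3.58 and 5.09) had DSG-only sites alone, as had NCF1, whose summit bases occur 3 times in the reference. Of 20 erythroid and megakaryocyte genes, 5 (25%) had a shared site, a share below that of all genes. Among them were TFRC, the transferrin receptor (20.0, 28.3 and 30.1), and ITGA2B, the platelet integrin chain (4.50, 21.1 and 20.3). GYPB, a red cell surface glycophorin, had 17.2, 12.7 and 27.8.

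Of 20 growth factor receptor genes, 14 (70%) had a shared site, next to 32.8% of all genes. IFNGR1, the interferon gamma receptor, had 17.1 with the single crosslink and 4.26 and 13.9 with DSG, and TNFRSF1A, a tumor necrosis factor receptor, had 11.1, 48.3 and 43.9. KIT, the stem cell factor receptor, had 6.90, 6.57 and 8.16. CSF2RA and IL3RA, which lie on both X and Y, had 9 DSG-only sites each on X and no other. Of 18 stem cell surface and adhesion genes, 15 had a shared site (83.3%, next to 32.8% of all genes). ITGA4 (17.6, 18.9 and 15.5), CD44 (15.6, 8.77 and 18.8) and CD34 (13.9, 26.9 and 26.7) were among the strongest. SPINK2 (14.2) had 3.13 and 9.18 with DSG. CDH2, a cadherin, had a single-only site at -558003 bp (6.003), 3 peaks found with DSG replicate 2 alone and no shared site. Of 20 genes of the TGF-beta and SMAD pathway, 16 (80%) had a shared site, next to the same 32.8%, led by SMAD2 (21.96, 12.6 and 10.9), SMAD6, an inhibitory SMAD (19.2, 13.6 and 20.4), and the receptor TGFBR1 (10.9, 10.3 and 10.8). SMAD4, the common partner, had a DSG-only site alone (11.2 and 4.09).

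In the remaining lists a shared site was nearest to 10 of 20 lymphoid genes, 9 of 20 HOXA and HOXB genes, 18 of 50 cytosolic ribosomal protein genes and 6 of 20 neuronal and sensory genes, next to 32.8% of all protein-coding genes. CD3E of the T cell receptor complex had 10.6, 27.6 and 16.2. RAG2, a recombinase subunit, had 2 single-only sites and no shared one. The stronger of them (9.43) was intergenic, -1.69e+06 bp from its TSS. HOXB1 had 7.62, 44.01 and 33.1. DSG-only sites alone were found at 19 of 50 ribosomal protein genes (38.0%), next to 31.4% of all genes. RPLP1 (24.6, 18.6 and 20.0) had the strongest shared site of that list, 306378 bp from its TSS. Large genes and genes with large flanks collect more sites by this rule, and list and rule were not corrected for it.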

How the data were processed

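The members and the gene and motif lists were chosen with earlier results of these data known. The authors aligned reads to hg19 and called peaks per library with MACS2 at default settings against a matched input, and the untreated inducible libraries share 1 input. The submitters' processing notes name Bowtie 1.1.1 and MACS2 2.1.2. Libraries were single-end or paired-end from either of 2 kits, and which applies to each is not fully given in the sources used here. The deposited fold enrichment is a ratio of signal over local background at the summit. Each peak's significance was deposited by the authors as -log10 of MACS2's p and q. No read counts were analysed, so depth is unknown, and -log10 p ranks mix depth with enrichment.

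Peaks on haplotype contigs and on chromosome 6 from 28.5 to 33.5 Mb were left out. Overlap meant at least 1 bp. DSG sites are merged intervals called in both DSG lists. A single-crosslink peak was paired with the overlapping DSG peak of highest fold enrichment. The nearest TSS came from GENCODE release 44 mapped to GRCh37, protein-coding genes only. Each gene had 1 TSS, the upstream end of its gene record. Other transcript starts were not used, and all promoter shares and TSS distances rest on this choice. Peaks on chromosomes 1 to 22, X and Y ended within the GRCh37 lengths. Exact copies of 50 summit bases were counted on both strands of the primary assembly, in which the shared part of Y may be masked. Intervals are Wilson intervals at 95% for counting error only, and spreads are SDs over 2 libraries. Named items were the 5 strongest sites per class, the 5 genes (ties as found) with the most DSG-only sites and neither a shared nor a single-only one, up to 6 list members by strongest shared site, every list member with a single-only and no shared site, up to 4 with DSG-only sites alone, and CTBP2, MECOM and GFI1B; windows were of the first site per class and of the 2 strongest shared sites at blood transcription factor genes, without chromosome 8 or UTRs. RUNX1 was added after its values were seen, and 1 list member that the rule names is not reported here. The procedure was tested on simulated lists, and 6 overlap counts were the same with bedtools 2.31.1. Software was Python with numpy, pandas, scipy and matplotlib. Alternatives were stricter peak thresholds, an overlap of 50%, lists of equal size, other regions kept or dropped, a 5 kb promoter, other ranks, other EVI1 sites and 1 DSG library at a time.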

Additional observations from a re-analysis of the deposited data

How the results depend on the processing

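No paired analysis was possible because the results come from no test and the single-crosslink group has 1 library. Of 92 values over 9 results, 67 stayed within the spread between the DSG libraries (gene counts: within 1.5 times), 20 moved and 5 changed sign. That spread is the SD of the values with 1 DSG library left out, and these values are themselves among the 92. For the log2 width ratio and rho the main value is their mean. There they stay within the spread by construction, and they count among the 67 without being a check. The 5 are all of the promoter share of DSG-only minus shared sites, which was 5.74 points at a -log10 q of at least 5, 6.005 at a fold enrichment of at least 5, 9.97 with lists of equal size, 0.198 with a 5 kb promoter and 0.308 for windows of 45 to 60% GC. With a fold enrichment of at least 5, single-crosslink peaks were also called with DSG in 67.7%, DSG sites with the single crosslink in 26.8%, and 4198 genes had a shared site; a -log10 q of at least 5 gave 27.1% for DSG sites. With lists of equal size these shares were 47.9% and 61.9%, and the EVI1 gap of DSG-only sites was -28.6 points. EVI1 sites of both inducible libraries gave -88.0 points for single-only and -16.6 for DSG-only sites, and EVI1 summits within 100 bp (chosen after seeing the data, like the GC and repeat settings) gave -36.4 and -32.9. The promoter gap of single-only sites was -11.9 points for windows of 45 to 60% GC. Sites within 1 kb of a TSS gave 2864 genes with a shared site. With 1 DSG library left out, the ranges were 79.0 to 89.2% and 19.3 to 24.6% for the shares called, 1.27 to 1.72 for the log2 width ratio, -24.1 to -12.6 and -7.13 to -2.05 points for the promoter gaps of single-only and DSG-only sites, 0.171 to 0.339 for rho, -44.9 to -30.6 and -53.2 to -45.1 points for the EVI1 gaps, and 6776 to 7171 genes. The cause of these shifts was not tested, except that equal size and stricter thresholds leave fewer peaks. Unknown depth limits all counts.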
